A study of Mus musculus with 8 samples.

Results

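The expression of 10 genes of the Z-disc and of intermediate filaments was examined in aged mouse muscle stem cells (MuSCs) cultured with or without nicotinamide (NAM) plus pyridoxine (PN). The genes were taken from a list of names that was chosen with earlier results of these data known. They are the sarcomeric alpha-actinins Actn2 and Actn3, the myozenins Myoz1 and Myoz2, Ldb3, Tcap, Csrp3, Cap2, desmin (Des) and vimentin (Vim). They were 10 of 55487 genes counted, of which 19244 had at least 1 count in any library and 12060 were tested. Of the 10 genes, 6 passed the filter on low counts and were tested, and Myoz1, Myoz2, Tcap and Csrp3 did not.

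MuSCs were sorted by FACS from the muscle of old mice, which the methods of the study describe as wild-type C57BL/6JRj males, and were seeded in growth medium for 72 hours either with 1% DMSO (vehicle) or with NAM/PN, for which the labels give a final concentration of 1 mM for the combination. There were 8 mice in 4 pools of 2 mice, and every pool gave 1 vehicle library and 1 NAM/PN library, so that libraries with the same number share their mice. The RNA of each culture was sequenced in bulk from the 3′ end of transcripts. Cells were kept in growth medium, not in a medium that drives fusion, and no fibers were sampled, so the values describe cells cultured as progenitors. In bulk RNA, fewer cells of a type and less RNA per cell cannot be told apart.

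The Z-disc is the boundary of the sarcomere, where actin filaments of neighboring sarcomeres are crosslinked by alpha-actinin. Myozenins, the PDZ-LIM protein encoded by Ldb3 (ZASP or Cypher), telethonin (Tcap) and the muscle LIM protein Csrp3 bind there and tie the structure to titin, to calcineurin and to mechanical signals. Desmin is the muscle-specific intermediate filament protein that links Z-discs to each other and to the membrane, whereas vimentin is the related filament protein of mesenchymal cells and of proliferating myoblasts. Desmin is already made in myoblasts, before sarcomeres form.

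The start regions of 4 of the genes are shown because their values bear on the comparison: Ldb3, Cap2 and Des were lower with NAM/PN in every pool and Vim was not. The RefSeq table used here gave windows of 300 bases (250 before and 50 after a transcript start) on GRCm38.p6 for 7 of the 10 genes, 9 windows in all, and the windows of Actn3, Myoz1 and Tcap were not analysed here. The windows lie on the minus strand at chr14:34588632-34588931 for Ldb3, on the plus strand at chr13:46501653-46501952 for Cap2, on the plus strand at chr1:75360042-75360341 for Des, and on the plus strand at chr2:13574061-13574360 for Vim, each written 5′ to 3′. Capitals mark E-boxes (CANNTG, the site of MYOD and myogenin), MEF2 sites and CArG boxes (the site of serum response factor), searched on both strands.
Ldb3: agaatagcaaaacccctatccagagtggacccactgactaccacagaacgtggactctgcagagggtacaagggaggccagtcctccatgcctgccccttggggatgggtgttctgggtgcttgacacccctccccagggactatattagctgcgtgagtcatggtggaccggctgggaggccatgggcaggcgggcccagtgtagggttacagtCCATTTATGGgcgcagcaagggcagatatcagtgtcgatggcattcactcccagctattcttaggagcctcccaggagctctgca
Cap2: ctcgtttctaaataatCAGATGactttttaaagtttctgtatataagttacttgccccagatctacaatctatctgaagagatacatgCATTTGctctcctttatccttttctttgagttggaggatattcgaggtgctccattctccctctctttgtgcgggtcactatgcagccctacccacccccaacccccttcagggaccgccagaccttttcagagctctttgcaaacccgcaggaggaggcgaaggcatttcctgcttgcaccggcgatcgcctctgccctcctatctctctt
Des: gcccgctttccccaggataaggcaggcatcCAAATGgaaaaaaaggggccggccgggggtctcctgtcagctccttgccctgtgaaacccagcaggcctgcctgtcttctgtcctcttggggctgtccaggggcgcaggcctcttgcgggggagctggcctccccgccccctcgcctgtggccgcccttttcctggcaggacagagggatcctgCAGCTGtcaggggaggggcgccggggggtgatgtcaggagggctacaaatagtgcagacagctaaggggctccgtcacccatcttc
Vim: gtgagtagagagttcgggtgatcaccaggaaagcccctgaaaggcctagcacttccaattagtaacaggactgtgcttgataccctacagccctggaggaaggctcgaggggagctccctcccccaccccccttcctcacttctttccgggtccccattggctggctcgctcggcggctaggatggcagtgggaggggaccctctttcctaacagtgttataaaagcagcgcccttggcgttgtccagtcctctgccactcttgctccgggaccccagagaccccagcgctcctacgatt
Positions are those of the first base of a match relative to the transcript start. The table gives 2 starts for Ldb3, and the window shown held no E-box and 1 CArG box at -35, and 1.63% of 32851 windows of this length held a CArG box. In the Cap2 window, E-boxes stood at -234 and -162, and the Des window had them at -220 and -36, the second spelling CAGCTG. Windows with any CANNTG were 72.3% of all windows, and those with CAGCTG 16.3%, so that an E-box alone sets no gene apart. The Vim window held none of the 3 motifs and a TATAAA at -32, which 13.6% of windows held. The window of the other start of Ldb3 overlaps the one shown and holds the same CArG box, at -109 from that start, and no E-box. The other windows not shown held 3 E-boxes for Actn2, 5 and 4 for the 2 starts of Csrp3, and 2 E-boxes with a MEF2 site at -33 for Myoz2, where 3.19% of all windows held a MEF2 site. These matches are letters in a window and were not measured as binding sites.

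Libraries held 6472484 to 10163101 counts. The floor of detection was set at 3 counts, which corresponded to 0.280 to 0.457 CPM depending on the library, where CPM are counts divided by the library size after normalization and scaled up by a constant. Floors and intervals cover counting error or the spread between libraries only, since reads copied by PCR were counted without molecular identifiers. The ribosomal RNA gene CT010467.1 took 5.22 to 18.7% of the counts, and vehicle library 3 had the highest share. Of 10 markers of MuSCs and myoblasts, 9 were counted in all libraries (Pax7 between 1042 and 1998 counts), and Msc was at 0 in 3 libraries. The sort, as the study describes it, removed cells with CD31, CD45, CD11B or SCA1. Of the immune markers, 7 of 8 were at 0 in all 8 libraries, Ptprc (CD45) and Itgam (CD11B) among them. Of 10 fibro-adipogenic markers, 4 were at 0 in all libraries (Pdgfra, Lum, Dpt and Mfap5), as were 4 of 8 endothelial markers. Ly6a (SCA1) had 37 counts in vehicle library 1, 17 in vehicle library 4 and 42 in NAM/PN library 2, Pecam1 (CD31) had 6, 24 and 18 in the same libraries, and both were at 0 in the other 5. NAM/PN libraries 1 and 2 held 3949 and 7409 counts of Col1a1, against 14 to 334 in the other 6 libraries. Without vehicle library 3, NAM/PN library 1 or NAM/PN library 2, 0 of the 10 genes were called, as with all 8 libraries.

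With NAM/PN, 4 of the 6 tested genes had lower levels in all 4 pools. The lowest relative to vehicle was Ldb3, at 14.1% of vehicle in the fit, followed by Actn3 at 35.9%, Cap2 at 65.4% and Des at 75.1%. Actn2 and Vim were at 99.9% and 102% of vehicle, Actn2 with an interval too wide to read and Vim with a narrow one. None of the 6 genes passed edgeR's quasi-likelihood test at an adjusted p under 0.05, where 1.28% of all 12060 tested genes passed, 0.995% lower and 0.282% higher. At an unadjusted p under 0.05, 4 of the 6 passed, all lower, where 9.28% of all tested genes passed in either direction and 5.32% lower. Lower values in 4 of 4 pools, found for 4 of the 6, were found for 10.6% of all tested genes. In 2 of the 6, Ldb3 and Cap2, every NAM/PN library lay below every vehicle library, as in 4.42% of all tested genes. The median log2 fold change of the 6 genes was -0.51, beside -0.0022 over all tested genes. Because the genes were chosen with earlier results of these data known, these shares and medians are no test of the genes as a group. By DESeq2, 0 of the genes were called, and by voom with quality weights 1 was called (Des). A p that misses the threshold does not show that the levels were alike, and the intervals below give the differences that the data allow.

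**Figure D1:**
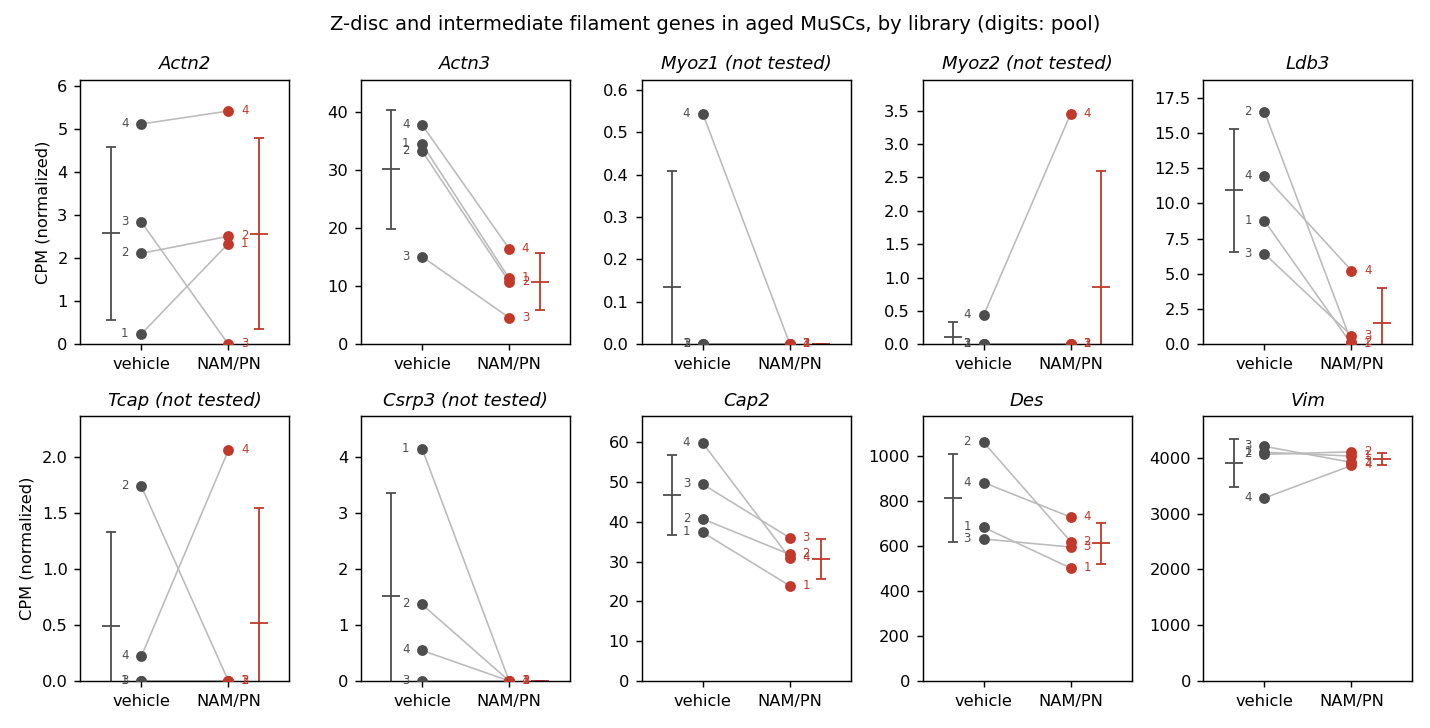
Normalized CPM (vertical axis, linear and from 0, with its own scale per gene) of the 10 genes in the 4 vehicle libraries (grey) and the 4 NAM/PN libraries (red), with lines joining libraries of the same pool and bars giving the mean ± SD, cut at 0. The lines of Actn3, Ldb3, Cap2 and Des all slope down, those of Actn2 and Vim go both ways, and Myoz1, Myoz2, Tcap and Csrp3 have most libraries at 0.

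Actn3 encodes the alpha-actinin of fast glycolytic fibers (ENSMUSG00000006457, chr19:4861216-4877909, minus strand, GRCm38). Its counts were 291, 268, 122 and 347 with vehicle and 92, 77, 30 and 176 with NAM/PN in pools 1 to 4. The NAM/PN library of each pool held 32.9%, 32.3%, 30.3% and 43.5% of the CPM of its vehicle library. All 4 pools thus gave a level between 30.3% and 43.5% of vehicle. The groups still overlapped, as vehicle library 3 (15.1 CPM) lay just below NAM/PN library 4 (16.4 CPM). That vehicle library also had the highest ribosomal share, whose part in its Actn3 level was not tested. Vehicle libraries averaged 30.1 ± 10.2 CPM and NAM/PN libraries 10.8 ± 4.86 CPM (SD, n = 4 each). On the log2 scale the difference was -1.48 (standard error 0.44, 95% interval -2.40 to -0.56). Its p was 0.00318 before and 0.133 after adjustment over all genes in edgeR's quasi-likelihood test. Over the alternatives, the adjusted p of Actn3 ranged from 0.0515 without the filter to 0.524 without pool 2, and none passed.

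Actn2, the alpha-actinin of cardiac muscle and of all skeletal fiber types (ENSMUSG00000052374, chr13:12269426-12340760, minus strand), was counted far less often. It had 2, 17, 23 and 47 counts with vehicle and 19, 18, 0 and 58 with NAM/PN. Pool 3 went from 2.84 CPM to 0 and pool 1 from 0.237 to 2.34 CPM, while pools 2 and 4 were nearly level at 2.11 against 2.51 CPM and 5.11 against 5.42 CPM. The groups overlapped over their whole range. Averages of 2.58 ± 2.02 and 2.57 ± 2.22 CPM (SD, n = 4 each) gave Actn2 a log2 fold change of -0.00097 with a 95% interval from -3.26 to 3.26, which spans 10.4% to 959% of the vehicle level, and no difference was detectable at this depth. Actn2 and Actn3 are similar in sequence, and how reads that map to both were counted is not given in the sources used here.

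Ldb3, whose product binds alpha-actinin at the Z-disc (ENSMUSG00000021798, chr14:34526603-34588682, minus strand), had the lowest level relative to vehicle among the 6 tested genes. Its counts with vehicle were 74, 133, 52 and 110, which is 8.76, 16.5, 6.42 and 11.97 CPM. With NAM/PN they were 0, 1, 4 and 56, or 0, 0.139, 0.609 and 5.23 CPM. NAM/PN libraries 1 and 2 were under the floor of 3 counts, library 3 was just above it, and library 4 held 56 of the 61 counts of its group, yet also lay below the lowest vehicle library. The log2 fold change was -2.83 (standard error 1.18, 95% interval -5.29 to -0.37), from means of 10.9 ± 4.36 and 1.49 ± 2.504 CPM (SD, n = 4 each). In edgeR's quasi-likelihood test p was 0.0266 before and 0.417 after adjustment. A fit with a replicate block for the pool gave a log2 fold change of -4.46 (adjusted p = 0.270, edgeR). Without NAM/PN library 4 it was -5.41 with an adjusted edgeR p of 0.0310, the only alternative in which Ldb3 was called, while without both libraries of pool 4 it was -5.36 (adjusted p = 0.153). Adjusted p-values of Ldb3 over all alternatives ranged from 0.0310 to 0.890.

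The other Z-disc partners were at or near the floor in most libraries and were not tested. Csrp3, the muscle LIM protein (ENSMUSG00000030470, chr7:48830398-48848033, minus strand), had 35, 11, 0 and 5 counts with vehicle and 0 in all 4 NAM/PN libraries. With each NAM/PN library set at its floor of 3 counts, the mean level of Csrp3 was at least 3.97-fold lower with NAM/PN. However, 35 of its 51 counts came from vehicle library 1, without which this bound was 1.67-fold, and vehicle library 3 was at 0 as well. Tcap, the titin cap protein telethonin (ENSMUSG00000007877, chr11:98383811-98384953, plus strand), had 0, 14, 0 and 2 counts with vehicle and 0, 0, 0 and 22 with NAM/PN. Myoz1 (ENSMUSG00000068697, chr14:20649107-20656540, minus strand), a calcineurin-binding protein of fast fibers, was seen only as 5 counts in vehicle library 4. Myoz2 (ENSMUSG00000028116, chr3:123006206-123035015, minus strand), its counterpart of slow fibers and heart, had 4 counts in vehicle library 4, 37 counts in NAM/PN library 4 and 0 in the other 6 libraries. Both myozenins were thus counted only in cells of pool 4, and all Tcap counts with NAM/PN were from that pool too. When all genes with at least 1 count were tested, the adjusted edgeR p was 0.366 for Csrp3, 0.399 for Myoz1, 0.745 for Myoz2 and 0.996 for Tcap.

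Cap2 encodes the cyclase-associated protein of striated muscle, which binds actin monomers and speeds actin filament turnover (ENSMUSG00000021373, chr13:46501848-46650281, plus strand). Its level was 37.3, 40.7, 49.4 and 59.7 CPM with vehicle and 23.9, 31.8, 35.9 and 30.8 CPM with NAM/PN. The highest NAM/PN library (pool 3) stayed below the lowest vehicle library (pool 1), and within pools the NAM/PN level was between 51.6% and 78.1% of vehicle. Averages of 46.8 ± 10.03 and 30.6 ± 5.00 CPM (SD, n = 4 each) gave Cap2 a log2 fold change of -0.61 (standard error 0.27, 95% interval -1.18 to -0.041), with an edgeR p of 0.0369 before and 0.480 after adjustment. Antisense genes that overlap Cap2 had at most 11 counts in a library, against at least 194 for Cap2.

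Desmin was lower with NAM/PN in all 4 pools by a smaller ratio (Des, ENSMUSG00000026208, chr1:75360329-75368579, plus strand). It was counted 5761, 8542, 5105 and 8096 times with vehicle and 4071, 4440, 3905 and 7789 times with NAM/PN, which gave 682, 1059.8, 630.5 and 881 CPM against 501, 619, 595 and 728 CPM. The NAM/PN level was 73.5%, 58.4%, 94.3% and 82.6% of vehicle in pools 1 to 4. The groups overlapped because NAM/PN library 4 lay above vehicle libraries 1 and 3. Averages of 813 ± 197 and 610.5 ± 93.0 CPM (SD, n = 4 each) were in the fit a log2 fold change of -0.41 (standard error 0.18, 95% interval -0.79 to -0.040). In edgeR's quasi-likelihood test p was 0.0320 before and 0.460 after adjustment. Des was called by voom with quality weights and the pool as a random effect (log2 fold change -0.52, adjusted p = 0.0478), whereas without vehicle library 2 the edgeR estimate was -0.26 (adjusted p = 0.900). Its adjusted p ranged from 0.0478 to 0.962 over the alternatives.

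Vimentin (Vim, ENSMUSG00000026728, chr2:13573927-13582826, plus strand) had the most counts of the 10 genes, between 25717 and 41333 in a library. Its level was 4098, 4059.9, 4204 and 3277 CPM with vehicle and 4029, 4106, 3916 and 3861 CPM with NAM/PN. Vehicle library 4 stood below the other 7 libraries, which lay between 3861 and 4204 CPM. The means were 3909.8 ± 426 and 3978 ± 111 CPM (SD, n = 4 each), and the log2 estimate was 0.025 (standard error 0.13, adjusted p = 0.988 in edgeR). The 95% interval, -0.24 to 0.29, bounds the level with NAM/PN to between 84.8% and 122% of vehicle, the narrowest of the 6 tested genes.

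**Figure D2:**
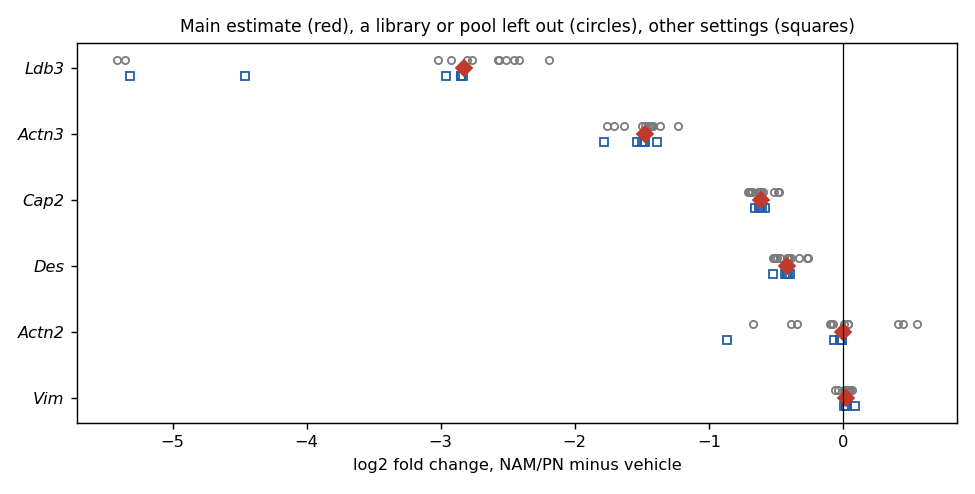
Log2 fold change (horizontal axis, NAM/PN minus vehicle) of the 6 tested genes in the reported edgeR fit (red diamonds), with a library or pool left out (grey circles) and under the other settings (blue squares). Actn3, Ldb3, Cap2 and Des stayed below 0 throughout, Ldb3 spread from -5.41 to -2.19, and Actn2 and Vim lay on both sides of 0.

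Ratios of counts within a library do not depend on how libraries are scaled, and 4 of them were compared between the conditions by two-sided exact permutation tests over 70 assignments, with p-values adjusted over the 4 ratios. Only the difference between conditions is read, because 3′ counts were not divided by transcript length. There were 16.6, 26.1, 14.999 and 26.9 counts of Des for every 100 of Vim with vehicle and 12.4, 15.1, 15.2 and 18.8 with NAM/PN, 0.5 having been added to each count. The ratio was lower with NAM/PN in 3 of 4 pools and nearly level in pool 3. Its mean log2 value was -2.29 ± 0.44 with vehicle and -2.72 ± 0.24 with NAM/PN (SD, n = 4 each), a difference of -0.43 (exact permutation p = 0.20, adjusted 0.40).

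Cap2 was set against Cap1, its widely expressed paralog. For every 100 counts of Cap1 there were 44.5, 42.5, 41.2 and 57.9 of Cap2 with vehicle and 19.7, 29.1, 43.7 and 38.8 with NAM/PN. Pools 1, 2 and 4 had the lower ratio with NAM/PN and pool 3 a slightly higher one. The log2 ratio of Cap2 to Cap1 differed by -0.56 (exact permutation p = 0.0857, adjusted 0.343), and without NAM/PN library 3 by -0.71 (exact permutation p = 0.0286 before adjustment, the exact p ranging up to 0.30 over the alternatives). Cap1 itself was at 101 ± 15.1 and 98.3 ± 20.6 CPM (SD, n = 4 each, log2 fold change -0.036, which is 0.047 by voom). It overlaps Ppt1 on the other strand, which had up to 1054 counts in a library.

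The 2 ratios with Actn2 were set by its few counts. Actn2 to the sum of the non-muscle alpha-actinins Actn1 and Actn4 had a mean log2 ratio of -9.87 with vehicle and -10.2 with NAM/PN (exact permutation p = 0.8286), and Actn2 to Des -8.82 and -8.90 (exact permutation p = 0.943). In NAM/PN library 3, where Actn2 had 0 counts, its log2 ratio to Des was -12.9, against -7.91 to -7.06 in the other NAM/PN libraries. Without that library the differences were 1.04 and 1.26 in place of -0.33 and -0.081. They were also above 0 without vehicle library 4 (0.15 and 0.39), and that of Actn2 to Des was so without vehicle library 3 (0.27) or with a pseudocount of 2 (0.25), so that their sign depended on single libraries. The smallest p that 4 against 4 libraries can give is 0.0286, and 0.125 for sign changes within 4 pools.

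**Figure D3:**
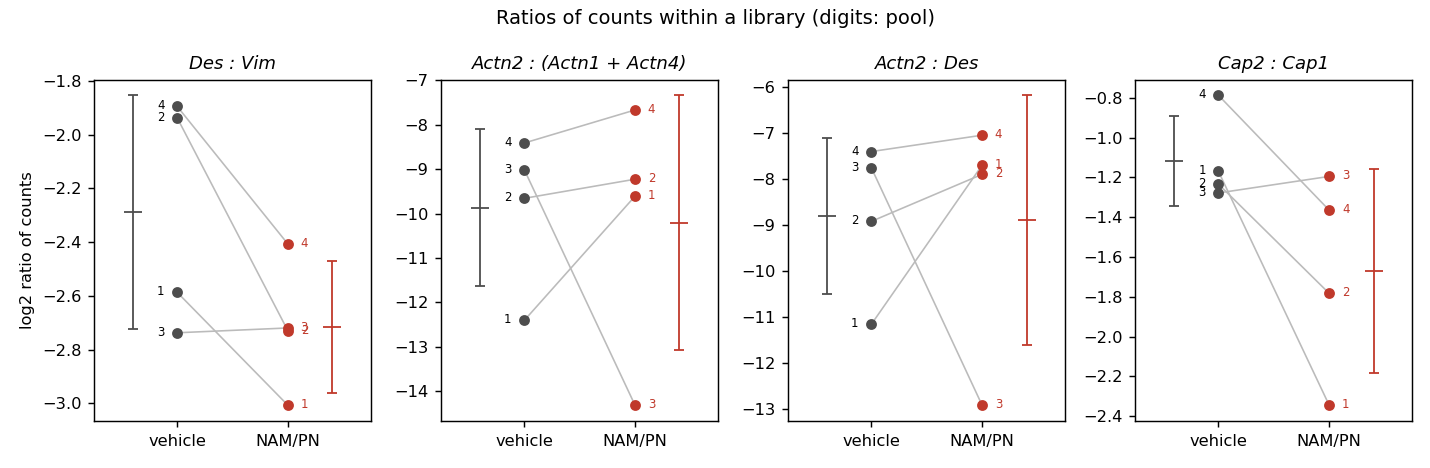
Log2 ratio of counts within a library (vertical axis, 0.5 added to each count, with its own scale per panel) for Des to Vim, Actn2 to Actn1 plus Actn4, Actn2 to Des and Cap2 to Cap1, with lines joining the libraries of a pool and bars giving the mean ± SD (n = 4). The Des to Vim and Cap2 to Cap1 ratios were lower with NAM/PN in 3 of 4 pools. In both ratios with Actn2, NAM/PN library 3 has the lowest value, followed by vehicle library 1.

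Of 33 other genes of the Z-disc, 26 were tested and 6 fell with NAM/PN, 0 rose and 20 did not pass. Over all tested genes, 0.995% were called lower and 0.282% higher. The fold change was below 0 for 20 of the 26, with a median of -0.36 on the log2 scale, and for 50.2% of all tested genes. This list too was chosen with earlier results of these data known, so the shares are no test of it. The genes that fell encode nebulin (Neb, which spans the thin filament from the Z-disc), the actin-bundling Z-disc proteins of the synaptopodin 2 family (Synpo2 and Synpo2l), palladin (Palld, which binds alpha-actinin), the PDZ-LIM protein ALP (Pdlim3, a relative of Ldb3) and the desmin chaperone alpha B-crystallin (Cryab).

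In all 6 genes every NAM/PN library lay below every vehicle library, as in 4.42% of all tested genes. The 6 were picked by their calls in these same libraries, so the lack of overlap adds no support to the calls. Neb was at 247 ± 103 CPM with vehicle (154 to 362) and 67.2 ± 18.1 CPM with NAM/PN (49.5 to 90.3), which was -1.88 on the log2 scale (standard error 0.27, adjusted p = 0.00068 in edgeR). Pdlim3 was at 29.4, 65.3, 36.7 and 65.3 CPM with vehicle and 3.08, 15.3, 7.61 and 15.04 CPM with NAM/PN (log2 fold change -2.25, standard error 0.45, adjusted p = 0.0106 in edgeR). Like Ldb3, its relative in structure, Pdlim3 was lower in all 4 pools, but with over 3 times as many counts in each vehicle library and none of its NAM/PN libraries under the floor. Synpo2l fell from 122 ± 10.7 to 39.5 ± 4.11 CPM (log2 fold change -1.62, adjusted p = 0.00015 in edgeR) and Synpo2 from 61.6 ± 7.16 to 17.0 ± 4.21 CPM (-1.86, adjusted p = 0.0012). Cryab fell from 189.6 ± 53.7 to 81.0 ± 4.76 CPM (-1.23, adjusted p = 0.0040 in edgeR), and Palld from 229.6 ± 35.0 to 101 ± 29.99 CPM (-1.19, adjusted p = 0.0055). Cryab shares its locus with Hspb2 on the other strand, which had at most 137 counts in a library.

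The calls of Synpo2l, Neb and Synpo2 were kept under all 18 alternatives. Pdlim3 lost its call without vehicle library 2 or 4 (adjusted p = 0.0776 and 0.0729) and without pool 2, 3 or 4 (0.107, 0.0565 and 0.0682), Cryab without pool 1 or 2 (0.104 and 0.0936), and Palld without pool 2 or 4 (0.0503 and 0.0675), all from edgeR and all with the same sign. Without pool 2, 3 of the 6 were called. Among the 26 tested genes, Mypn, myopalladin, had the lowest fold change and was chosen here after its values were seen. It went from 102, 175, 22 and 143 counts with vehicle to 15, 14, 10 and 6 with NAM/PN without overlap, but the adjusted edgeR p was 0.0968 (log2 fold change -3.14), while DESeq2 called it (0.0033) and edgeR did so without vehicle library 3 (0.0315). Over the alternatives the adjusted p of Mypn ranged from 0.0033 to 0.556. Of the 7 genes not tested, Xirp2, an actin-binding protein of muscle also chosen after its values were seen, had 0, 41, 173 and 64 counts with vehicle and 0, 8, 0 and 0 with NAM/PN, a mean level of 3.34% of vehicle with overlapping groups. Vehicle library 3 alone held 173 of its 278 counts with vehicle. Also not tested, Cmya5 and Ankrd2 had 34 and 8 counts in all with vehicle and 0 with NAM/PN.

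The non-muscle alpha-actinins, which crosslink actin in stress fibers and at adhesions, gave no call. Actn1 was at 918 ± 77.7 and 761 ± 185 CPM (log2 fold change -0.27, 95% interval -0.64 to 0.098, adjusted p = 0.752 in edgeR). NAM/PN library 4, at 493 CPM, lay below the other 7 libraries, which were between 802 and 993 CPM. Actn4 was at 736 ± 51.8 and 759 ± 141 CPM (0.044, interval -0.29 to 0.37, adjusted p = 0.986). Myot and Myoz3, further partners of alpha-actinin in fibers, had 0 counts in all libraries.

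**Figure D4:**
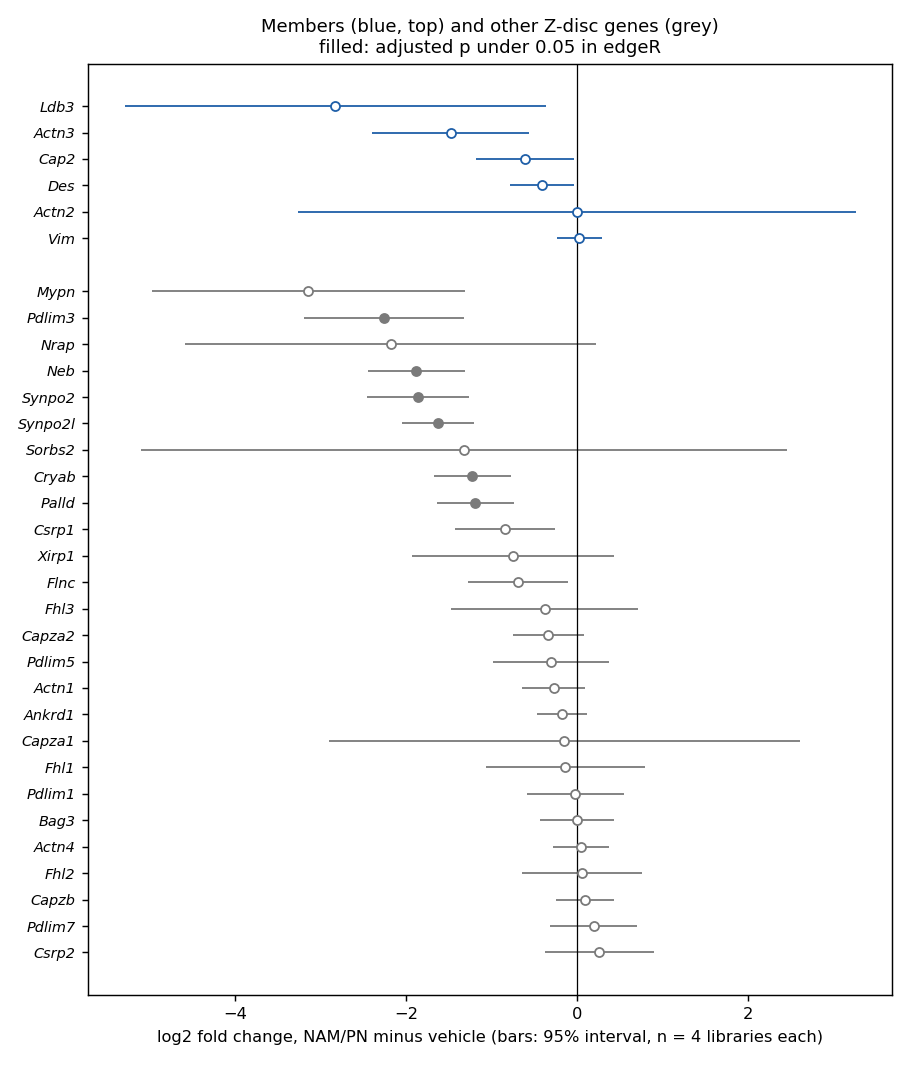
Log2 fold change with its 95% interval (horizontal axis, NAM/PN minus vehicle, n = 4 libraries per condition) of the 6 tested genes (blue) and of 26 other tested Z-disc genes (grey), with filled points for an adjusted edgeR p under 0.05. No blue point is filled, and the 6 filled grey points lie between -2.25 and -1.19.

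Of 20 other genes of intermediate filaments and their linkers, 10 were tested and 0 were called by edgeR, DESeq2 or voom, with a median log2 fold change of -0.013. Nestin (Nes), which forms filaments together with desmin or vimentin in myoblasts, had the smallest p. Its level was 117, 153, 223 and 208 CPM with vehicle and 106, 112, 134 and 132 CPM with NAM/PN. It was lower in 4 of 4 pools, as Des was, with overlapping groups and a log2 fold change of -0.54 (in edgeR, an unadjusted p of 0.0185 and an adjusted p of 0.352). Krt18, a keratin of simple epithelia, had 0, 31, 8 and 0 counts with vehicle and 83, 10, 29 and 348 with NAM/PN (log2 fold change 3.32, in edgeR, an unadjusted p of 0.0200 and an adjusted p of 0.362), most of them in NAM/PN library 4. The log2 fold change of Krt18 was 2.13 without that library, 1.72 without pool 4, 5.17 without vehicle library 2 and 5.55 without pool 2, and it was not called in any alternative. Nes and Krt18 were the 2 genes of this list with an unadjusted edgeR p under 0.05, which 9.28% of all tested genes had. Lower values in 4 of 4 pools, as for Nes, were found for 10.6% of all tested genes.

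Of 10 genes that turn over actin together with Cap2 or in its place, all were tested and edgeR called none, nor did any have an unadjusted p under 0.05, and the median log2 fold change was 0.11. The smallest p-values belonged to Cotl1 (30.02 ± 4.51 and 41.3 ± 12.8 CPM, log2 fold change 0.46, adjusted p = 0.760 in edgeR) and Pfn1 (322 ± 43.3 and 389 ± 106 CPM, 0.27, adjusted 0.780). Both were higher with NAM/PN in 3 of 4 pools, whereas Cap2 was lower in 4 of 4.

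Markers of committed myocytes were mostly lower with NAM/PN. Of 10 myocyte markers, all were tested, 9 fell and 0 rose, with a median log2 fold change of -2.37. Over all tested genes, 0.995% were called lower and 0.282% higher. The summed level of the myocyte markers was between 1489 and 2853 CPM in the vehicle libraries and between 198 and 597 CPM in the NAM/PN libraries. None of these markers was at 0 in all libraries. Myog, the transcription factor myogenin, fell from 929 ± 389.8 to 199 ± 74.3 CPM (SD, n = 4 each, log2 fold change -2.22, adjusted p = 0.00023 in edgeR). The log2 fold change was -2.33 for embryonic myosin (Myh3), -2.41 for the fast myosin light chain Mylpf, -2.60 for the fusion factor myomaker (Mymk), -2.70 for skeletal actin (Acta1) and -3.03 for fast troponin C (Tnnc2), with adjusted edgeR p-values between 0.00023 and 0.0016. Without pool 2, Mymk and Tnnc2 lost their call (adjusted p = 0.0503 and 0.0524 in edgeR). With a library or pool left out, the log2 fold change ranged from -3.19 to -2.24 for Mymk and from -3.94 to -2.77 for Tnnc2. Tnnc2 overlaps Ube2c on the other strand, which had up to 3824 counts in a library. Ckm was the marker that did not pass (log2 fold change -1.69, adjusted p = 0.870). Of 9 tested MuSC and myoblast markers, edgeR called 0 (0 also at an unadjusted p under 0.05), with a median of -0.19 and summed levels of 2355 to 2584 CPM with vehicle and 1904 to 2320 CPM with NAM/PN. Among these, Pax7 had a log2 fold change of -0.18 and Myod1 of -0.19. The smallest p-values of the list were those of Myf5 (41.4 ± 17.0 and 25.8 ± 9.21 CPM, log2 fold change -0.68, adjusted p = 0.602 in edgeR), lower in 2 of 4 pools, and Musk (30.5 ± 6.35 and 18.5 ± 8.63 CPM, -0.72, adjusted p = 0.629 in edgeR), lower in 4 of 4 pools, both with overlapping groups. The part of the myocyte markers' fall in the levels of the Z-disc and filament genes was not tested.

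Few markers of other cells were tested. Of 3 tested fibro-adipogenic markers, with a median log2 fold change of -1.17, Col3a1 fell (-1.17, adjusted p = 0.0026 in edgeR). Col1a1 was at 4.97 (adjusted p = 0.0709 in edgeR) and was called by edgeR without vehicle library 3 (7.19, adjusted p = 0.0194), NAM/PN library 3 (5.38, 0.0278), NAM/PN library 4 (5.38, 0.0161) or pool 3 (7.61, 0.0080). Its adjusted p ranged from 7.5e-97 without the filter, where it was called as well, to 0.613 by voom, and was 0.448 with the replicate block. Cd55 was at -3.86 and lower in 4 of 4 pools without overlap (in edgeR, an unadjusted p of 0.0093 and an adjusted p of 0.248). Of 3 tested mural markers, Acta2, which differentiating myoblasts express as well, fell (-2.38, adjusted p = 0.00015 in edgeR), and Cspg4 and Notch3 were at -0.53 and -0.50 (adjusted p = 0.817 and 0.779 in edgeR), while Myh11 was at 0 in all libraries. The part of these markers in the levels of the Z-disc and filament genes was not tested either. The tested endothelial (Egfl7), immune (Cd68) and glial and tendon markers (3 tested, Scx and Mkx among them) gave 0 calls. Of those 3, 2 were below 0 and 1 was above 0, at 0.76 on the log2 scale. Egfl7 had 33, 92, 26 and 135 counts with vehicle and 80, 128, 68 and 316 with NAM/PN, and was at 1.02, higher in 4 of 4 pools with overlapping groups (adjusted p = 0.687 in edgeR). Cd68 was at 0.43 and Scx at -0.35 (adjusted p = 0.976 and 0.567 in edgeR), Scx being lower in 4 of 4 pools with overlapping groups. Mkx, a transcription factor of tendon, was at -3.28 and lower in 4 of 4 pools without overlap (in edgeR, an unadjusted p of 0.0340 and an adjusted p of 0.470). On the other strand, Egfl7 overlaps Agpat2 (up to 290 counts in a library) and Scx overlaps Bop1 (up to 1364).

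**Figure D5:**
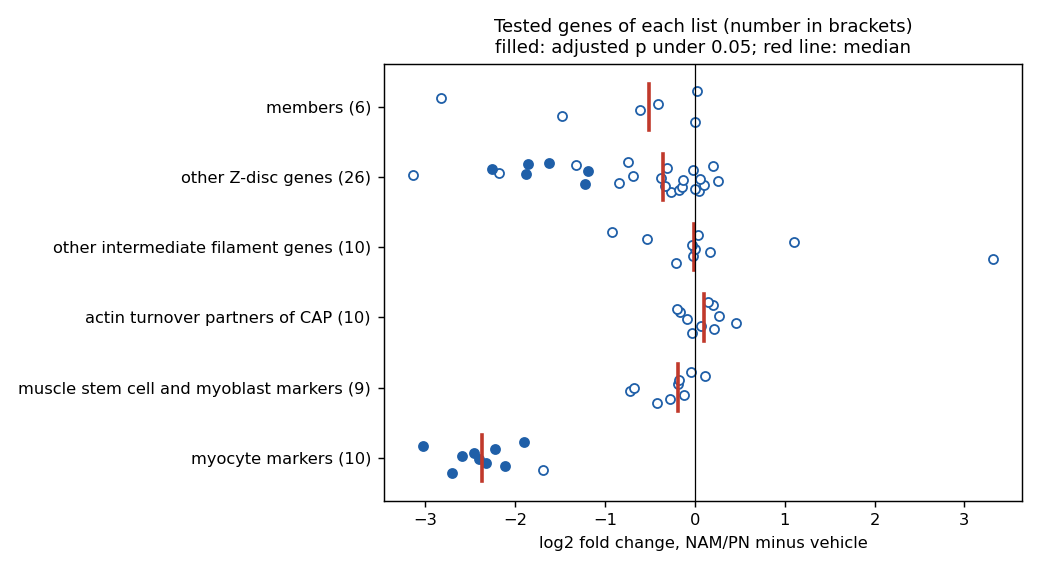
Log2 fold change (horizontal axis, NAM/PN minus vehicle) of every tested gene in 6 lists, with the number tested in brackets, filled points for an adjusted edgeR p under 0.05 and red lines for medians (vertical scatter within a list carries no value). The medians are -0.51 for the Z-disc and filament genes of the comparison, -0.36 for other Z-disc genes, -0.013 for other intermediate filament genes and -2.37 for myocyte markers, of which 9 of 10 are filled.

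The genes whose level across the 8 libraries was most like that of Actn2, Des and Vim were looked for among 9208 tested genes (those whose log2 CPM averaged 3 or more), as a description without a test. Des was most like Dcaf4 (Pearson r of log2 CPM 0.974), Mtss1l (0.930) and Lima1 (0.928), the last an actin-bundling LIM protein, and all 3 had a lower mean with NAM/PN (log2 fold changes -0.52, -0.92 and -0.52, adjusted edgeR p-values of 0.782, 0.0940 and 0.470). Vim was most like Dhx32 (0.957), Asxl2 (0.925) and the translation factor gene Eif5 (0.901), and Actn2 most like Zscan26 (0.957), Cerk (0.954) and Nudt16 (0.937). Values of r from the deviations within conditions were between 0.892 and 0.966 for these 9 genes. The points share pools, treatment and library depth, and nothing about function or control is read from them.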

How the data were processed

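RNA of 8 libraries, 4 with vehicle and 4 with NAM/PN, was analyzed. What the authors deposited is a table of unnormalized counts, one whole number for each gene and library, with no gene filtered out. Per the labels, a QuantSeq 3′ kit was used for the libraries, and the submitters' processing notes name HTSeq 2.16.2 and GRCm38. The methods of the study name Bcl2FastQ, casava, RNASTAR and htseq-count. The annotation release, the strand setting and the rule for reads with several matching genes are not given in the sources used here. A 3′ kit counts transcript ends, so counts were not divided by length. The table held 0 columns that could not be mapped to a sample, and no columns of comparisons made by the authors.

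Groups followed the treatment given in the labels. Same-numbered libraries come from the same pool of mice in the labels, although their deviations from the condition means were uncorrelated across genes (r between -0.0332 and 0.0313 in the 4 pools). No library was a copy of another (chi-square per degree of freedom at least 22.6 for every pair of a group). Totals were between 6472484 and 10163101 counts, which sets the precision of genes with few counts.

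Genes were filtered with filterByExpr (minimum count 10, minimum total count 15), scaled with edgeR's TMM factors and compared with the quasi-likelihood test of edgeR 4.0.16 (R 4.3.3). The study describes this filter, scaling and test for mouse muscles. The Benjamini-Hochberg adjustment over 12060 genes and the threshold of 0.05 were set here. Log2 CPM used a prior count of 2. Ratios used log2 of counts plus 0.5 and two-sided exact permutation tests. The scripts were tested on simulated data. Alternatives were the pool as a replicate block, DESeq2 1.42.0, RLE size factors, no filter, voomWithQualityWeights with duplicateCorrelation (limma 3.58.1), counts thinned to the smallest library, a pseudocount of 2 for ratios, and leaving out each library or pool. Plots were made with matplotlib 3.10.9 under Python 3.11.15.

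Gene positions and symbols (for 55141 identifiers) came from GENCODE M21 on GRCm38, and promoter windows from RefSeq on GRCm38.p6. The genes and lists were chosen with earlier results of these data known. Named are all 10 genes, up to 6 called genes of each other list by smallest p (or, with fewer than 2 called, the 2 tested genes with the smallest p), Actn1, Actn4, Cap1, Pax7, Myod1 and Myog, and the 3 genes most like Actn2, Des and Vim. Mypn, Xirp2, Cmya5, Ankrd2, Msc, Ptprc, Itgam, Ly6a, Pecam1, Cd55, Cspg4, Ckm, Myot, Myoz3, Pdgfra, Lum, Dpt, Mfap5, Myh11 and CT010467.1 were named after their values were seen.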

Additional observations from a re-analysis of the deposited data

Results flagged for a closer look

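In groups of 4 libraries, the highest or lowest library was singled out when the distance to its neighbor made up a larger part of the group's whole range than Dixon's 95% critical value allows. This held for 8 of 26 groups examined over the 10 genes and 4 ratios, where chance gives about 1 in 20, or 1.3 groups. In genes with counts in a single library, any such library is singled out.

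Pool 4 held 6 of the 8. With vehicle, its library had 0.544 CPM of Myoz1 and 0.435 CPM of Myoz2, each at 0 in the other vehicle libraries, and 3277 CPM of Vim, against 4059.9 to 4204 CPM in the others. With NAM/PN, its library had 3.46 CPM of Myoz2 and 2.05 CPM of Tcap, each at 0 in the other NAM/PN libraries, and 5.23 CPM of Ldb3, against 0 to 0.609 CPM.

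Vehicle library 2 had 1.74 CPM of Tcap, against 0 to 0.218 CPM in the other vehicle libraries. In NAM/PN library 3 the log2 ratio of Actn2 to Des was -12.9, against -7.91 to -7.06 in the other NAM/PN libraries, as Actn2 had 0 counts there.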

How the results depend on the processing

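The count of Z-disc and filament genes called was 0 in 16 of 18 alternatives. It was 1 by voomWithQualityWeights with duplicateCorrelation (Des, log2 fold change -0.52, adjusted p = 0.0478), and between 0 and 1 with a library or pool left out (Ldb3 without NAM/PN library 4). With the pool as a replicate block it was 0, and no gene of the lists changed its call. All genes called numbered 156 with the block, 388 by DESeq2, 366 without the filter and 232 by voom, against 154, and between 42 and 177 with a library or pool left out. The share of calls that were lower was 77.9%, against 68.0% by DESeq2, 63.1% without the filter and 71.6% by voom. Other Z-disc genes called ranged from 3 (without pool 2) to 7, and other intermediate filament genes stayed at 0.

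Log2 fold changes of Actn3, Ldb3, Cap2 and Des kept their sign in all 18 alternatives. With a library or pool left out, signs turned for Actn2 (-0.67 to 0.56), Vim (-0.059 to 0.067), Actn4 (-0.11 to 0.15), Cap1 (-0.24 to 0.13) and Pax7 (-0.33 to 0.016), and Cap1 was at 0.047 by voom. The ratio difference of Actn2 to Des was 0.25 with a pseudocount of 2 and between -1.26 and 1.61 with a library or pool left out, and that of Actn2 to Actn1 plus Actn4 between -1.38 and 1.33. Cap2 to Cap1 stayed between -0.77 and -0.33, and Des to Vim between -0.58 and -0.30. The causes were not tested.

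Depth limits Actn2, Myoz1, Myoz2, Tcap and Csrp3, for which no library held more than 58 counts, and Ldb3 with NAM/PN. With 4 libraries per condition, the intervals of Des and Cap2 end close to 0. Separate values for NAM and PN were not analysed here. Protein was not measured in these files.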
